A study of Mus musculus with 10 samples.

Results

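Follicular B cells (FoB) labelled as knockout for LSD1 were compared with wild-type FoB over all 9690 genes of the deposited expression table, which gives mRNA molecules per cell. The comparison was made between 3 knockout and 2 wild-type FoB libraries, which are 5 of the 10 libraries of the series. The other 5 libraries hold marginal zone B cells (MZB), 2 knockout and 3 wild type, and served to estimate the spread of each gene and to compare the knockout effects of both cell types. All mice were female and of strain C57BL/6J, and the spleen cells were neither treated nor stimulated. FoB were sorted for B220, CD23 and intermediate CD21, and against CD1d, CD93, GL7, CD11b, F4/80 and Thy1.1. The groups differ in LSD1 status as labelled. The sources used here do not give the allele, the deleted exons, the promoter that drives the deletion, the age of the mice or any pooling of animals. Nor do they tell whether replicate libraries stem from different mice, and all p-values rest on the spread among libraries, which may be technical. The test used, limma, draws the spread of each gene toward a trend shared across genes, most strongly for the deposited per-cell values.

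LSD1, encoded by Kdm1a, is a flavin-dependent histone demethylase that works with CoREST and histone deacetylases and is brought to enhancers and promoters by transcription factors, among them Gfi1 and Gfi1b. In the B lineage it is best known as a partner of the repressors Bcl6 in germinal centre cells and Blimp-1 in cells that become plasma cells. Follicular B cells are the resting majority of splenic B cells. They await antigen in the follicles and depend little on the Notch signal that shapes marginal zone cells.

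Reads worked back from the table numbered 4161051 to 5983133 per FoB library, with a median of 184 to 266.5 per gene. Log values of libraries of 1 group correlated across genes at 0.984 to 0.990. Knockout libraries 2 and 3 differed most, with a chi-square per gene of 7.17, against 1.90 for the wild-type libraries, where counting error alone gives about 1. The B cell markers on a list were all measured, 12 of 12, and none passed. The sum of mRNA per cell did not differ beyond the spread between libraries (ratio of knockout to wild type 0.967, two-sided exact permutation p = 0.7, where 3 against 2 libraries cannot go below 0.1). Libraries of 1 group nevertheless differed in this sum, from 43561.9 to 55703.6 in knockout and from 45237.0 to 56437.7 in wild-type cells. Changes are therefore given on 2 scales. Per-cell changes use the deposited values, and rescaled changes divide each library by a trimmed mean over its genes, so that they are relative to the other genes. Both are differences of log2(value + 0.3), which understates the change of genes with low levels.

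Kdm1a itself (chromosome 4, 136550533 to 136602787 on GRCm38.p6) held 2.04, 2.36 and 1.93 mRNA per cell in the knockout libraries and 5.58 and 4.34 in the wild-type ones. The groups did not overlap, and the ratio of the knockout to the wild-type mean was 0.425. The rescaled change was −1.10 ± 0.06 (SE; limma, Benjamini-Hochberg adjusted p = 2.59e-05), and leaving out any 1 FoB library kept the call (adjusted p up to 0.00214). The Kdm1a model overlaps that of Luzp1, and whether counting used strand is not stated. Whether the remaining reads lie outside the deleted part, or come from cells that kept the gene, was not tested.

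Of the genes behind the sort, 6 of 8 were measured. Fcer2a, which encodes CD23, held 96.6, 96.1 and 80.3 mRNA per cell in knockout and 107 and 80.4 in wild-type libraries. These values overlap, as do those of Cr2, which encodes CD21 (34.9, 43.2 and 37.9 against 45.1 and 32.6), and of Ptprc, Cd93 and Cd1d1, and none of these 5 genes passed. Itgam, which encodes the excluded marker CD11b, was low, at 0.308, 0.299 and 0.223 in knockout and 0.0875 and 0.0999 in wild-type libraries. It rose after rescaling (log2 0.69 ± 0.12, SE; limma, Benjamini-Hochberg adjusted p = 0.0338), not per cell (0.55, adjusted p = 0.317), and its call was lost with any 1 of the 5 FoB libraries left out (adjusted p from 0.061 to 0.253). In bulk libraries, more cells of a type and more RNA per cell cannot be told apart.

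After rescaling, 45 genes were higher in knockout FoB (0.464% of those tested) and 13 were lower (0.134%), by limma with Benjamini-Hochberg adjustment over all genes at 0.05. For each of these 58 genes (0.599%) the libraries of both groups did not overlap. Of all genes, 15.2% were higher and 16.1% lower in knockout without overlap. The calls rest on the same values, so the lack of overlap adds no support to them. The genes that rose were mostly low in wild-type FoB: their median level went from 0.872 to 1.87 mRNA per cell, and 23 of 45 stood under 1 in wild-type cells, against 23.8% of all genes. Their log2 changes ran from 0.37 to 2.12, and 11 exceeded 1. The 13 lower genes had a median of 3.89 in wild-type and 1.80 in knockout cells, and changes from −0.36 to −1.90. Per cell, 40 genes were higher (0.413%) and 29 lower (0.299%), 69 in all (0.712%), but 5 and 19 of these are small RNA genes that rest on a median of 1.9 reads. No small RNA gene passed after rescaling. Genes called the same way on both scales numbered 31 (0.32% of all genes), 24 higher and 7 lower. An unadjusted p under 0.05 was reached by 1413 genes after rescaling and by 373 per cell.

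**Figure D1:**
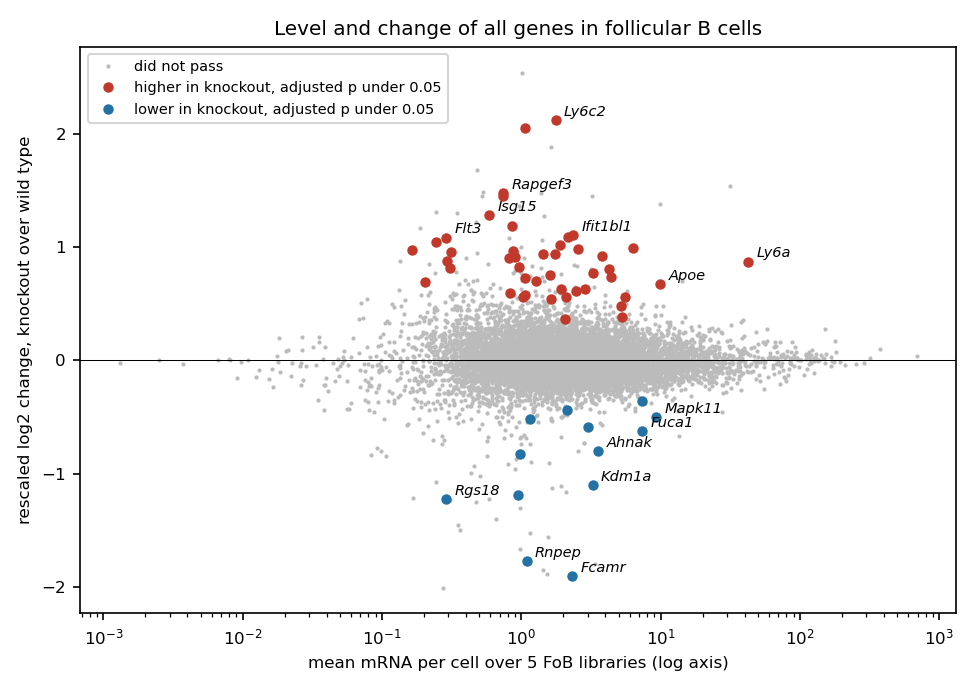
Each point is a gene, with its mean mRNA per cell over the 5 FoB libraries (log axis) and its rescaled log2 change between knockout and wild type. Red points are the 45 genes that rose and blue points the 13 that fell. Ly6c2 at 2.12 lies highest among the genes that passed, Fcamr at −1.90 lowest, and Ly6a is the most abundant.

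Most calls depend on the full set of libraries. With each FoB library left out in turn, 14 of 58 genes kept their call every time: Alox5ap, Rapgef3, B3glct, Isg15, Tgtp2, Flt3, Mpeg1, Setbp1, Cdh17 and Ly6a, which rose, and Fcamr, Rgs18, Kdm1a and Fuca1, which fell. The same 14 also held under each other alternative in which they were tested, 14 or 15 settings per gene with the left-out fits included, and none of the 58 changed sign in any of these. Flt3, Rapgef3 and B3glct have 14, since a floor of 1 molecule per cell removes them. Calls fell to 25 without wild-type library 1 and to 25 without wild-type library 2, where a single wild-type library remained.

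Alox5ap (chromosome 5, 149265004 to 149288153), which encodes the protein that presents arachidonic acid to 5-lipoxygenase, held 1.504, 1.979 and 1.358 mRNA per cell in knockout and 0.337 and 0.159 in wild-type libraries. Every knockout library lay well above both wild-type ones, and the rescaled change was 2.06 ± 0.23 (SE; limma, Benjamini-Hochberg adjusted p = 0.0022), on means of 47 and 7.5 reads. Rapgef3 (chromosome 15, 97744770 to 97768419) encodes Epac1, which activates the small GTPase Rap when cyclic AMP binds. It held 0.940, 1.52 and 0.766 in knockout and 0.278 and 0.220 in wild-type libraries, a rescaled change of 1.48 ± 0.17 (adjusted p = 0.0022). The cyclic AMP phosphodiesterase gene Pde8a rose too, from 0.762 and 0.678 to 1.38, 1.27 and 1.20 (log2 0.73, adjusted p = 0.0107). B3glct, a glucosyltransferase gene of the secretory pathway, held 1.12, 0.974 and 1.06 in knockout and 0.291 and 0.240 in wild-type libraries (log2 1.45 ± 0.13, adjusted p = 0.000788). Setbp1, whose product binds the SET oncoprotein, went from 1.77 and 1.36 to 2.70, 3.69 and 3.18 (log2 0.99, adjusted p = 0.0022). Apoe, the lipid carrier apolipoprotein E, held 12.0, 12.1 and 10.5 in knockout and 8.95 and 6.12 in wild-type libraries (log2 0.67, adjusted p = 0.00428). Among other risen genes were Cyb5a (cytochrome b5, log2 0.99), Slc16a7 (a monocarboxylate transporter, 0.97) and Lpcat2 (an acyltransferase of platelet-activating factor synthesis, 0.58). Without wild-type library 2 the limma adjusted p, with Benjamini-Hochberg adjustment, was 0.0748 for Apoe, 0.0552 for Cyb5a, 0.0809 for Slc16a7 and 0.0639 for Pde8a, and without wild-type library 1 that of Pde8a was 0.145. Lpcat2 lost its call with any 1 library left out (0.0511 to 0.301).

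**Figure D2:**
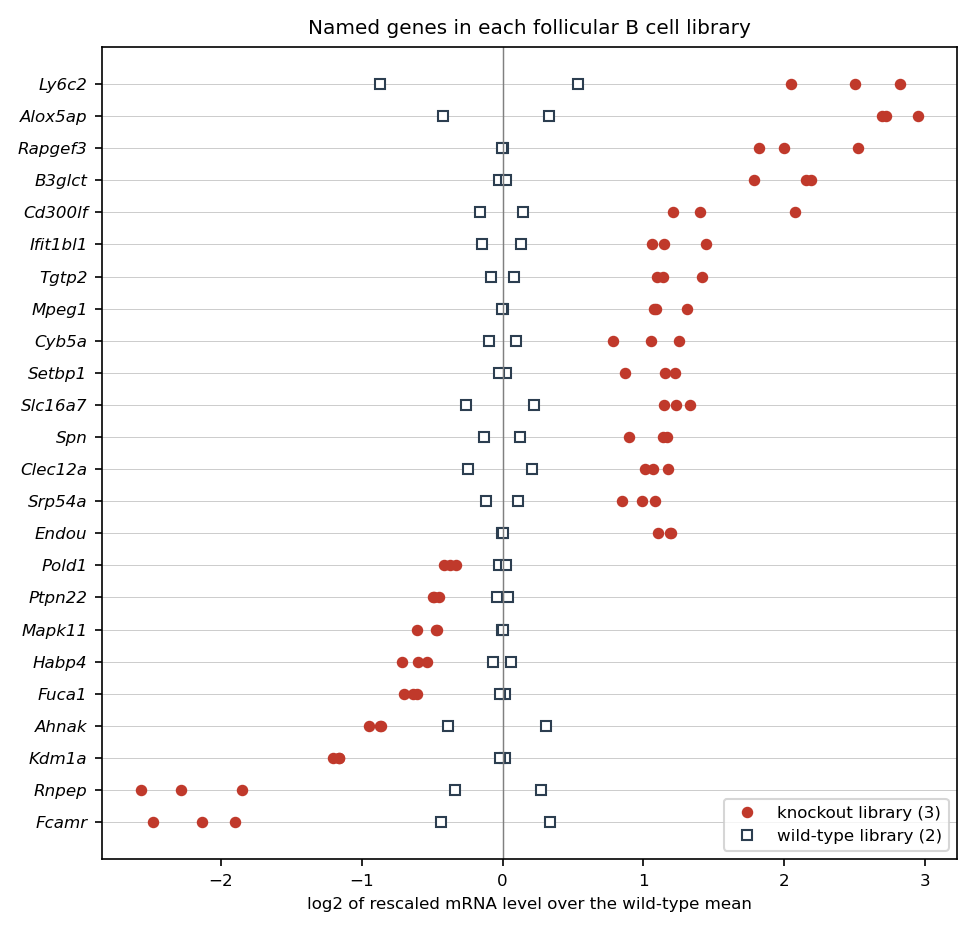
Rescaled mRNA levels of Kdm1a and of the 23 genes named by size of change, as log2 relative to the mean of the wild-type libraries. Red dots are the 3 knockout libraries and open squares the 2 wild-type ones. The groups do not overlap for any gene shown, which was a condition for naming the 23. The wild-type libraries of Ly6c2 (0.791 and 0.237 mRNA per cell before rescaling) lie far apart.

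Ly6c2 (chromosome 15, 75108161 to 75112066), a glycolipid-anchored antigen of monocytes and memory lymphocytes, held 2.63, 2.15 and 3.01 mRNA per cell in knockout and 0.791 and 0.237 in wild-type libraries. All knockout libraries lay above both wild-type ones, which differed from each other, and the rescaled change was 2.12 ± 0.29 (SE; limma, Benjamini-Hochberg adjusted p = 0.00671), or 1.65 with adjusted p = 0.0749 without wild-type library 2. Ly6a, which encodes Sca-1, stood far higher and rose from 32.1 and 25.6 to 49.4, 60.8 and 43.7 (log2 0.87 ± 0.09, adjusted p = 0.002). Of the 5 Ly6 family genes measured these 2 rose, against 0.464% of all genes, and Ly6d, Ly6e and Ly6k had changes from 0.04 to 0.45 without passing. Ly6 genes are close paralogs, so shared reads make their split uncertain. Cd300lf and Clec12a encode inhibitory receptors. Cd300lf went from 0.396 and 0.388 to 1.58, 0.973 and 0.913 (log2 1.19 ± 0.20, adjusted p = 0.0255), and Clec12a from 0.830 and 0.905 to 1.75, 1.89 and 1.74 (0.94, adjusted p = 0.0103). Mpeg1, the pore-forming perforin-2 of phagocytes, held 2.24, 2.54 and 2.42 in knockout and 1.26 and 0.990 in wild-type libraries (1.02 ± 0.09, adjusted p = 0.000658). Spn, which encodes CD43, a sialomucin that conventional resting B cells carry little of, held 2.265, 2.597 and 1.765 against 1.10 and 1.05 (0.94, adjusted p = 0.00652). The cadherin gene Cdh17 stood at 1.05, 1.21 and 0.894 against 0.489 and 0.468 (0.90, adjusted p = 0.00145). Some of these genes were far more abundant in wild-type MZB than in FoB. Per cell, wild-type MZB libraries held 20.5, 25.3 and 27.3 of Mpeg1, 11.6, 18.7 and 13.2 of Cd300lf, and 6.78, 10.3 and 8.64 of Cdh17. Ly6a and Clec12a were also higher there than in wild-type FoB, while Ly6c2 and Spn were not. Cd300lf lost its call without wild-type library 1 (limma, Benjamini-Hochberg adjusted p = 0.204) or 2 (0.117), Clec12a without library 1 (0.138) and Spn without library 1 (0.107).

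Ligands that B cells show to T cells changed less. Pdcd1lg2, which encodes the PD-1 ligand PD-L2, had rescaled levels of 4.503, 4.07 and 3.91 in knockout and 2.57 and 2.67 in wild-type libraries (log2 0.61 ± 0.10, SE; limma, Benjamini-Hochberg adjusted p = 0.0255). Cd86, a ligand of CD28, had rescaled levels of 3.32, 3.31 and 3.14 against 2.55 and 2.36, the smallest rise of all that passed (0.37, adjusted p = 0.0463). On a list of 12 memory and age-associated B cell genes, Ly6c2, Pdcd1lg2 and Cd86 rose, against 0.464% of all genes, and none fell. Their median log2 change was 0.17, against −0.00 over all genes. Ly6c2 is also counted among the Ly6 family genes and the macrophage and monocyte markers. This list was chosen with earlier results of these data known. Cd86 lost its call with any 1 FoB library left out (adjusted p 0.0579 to 0.375), and Pdcd1lg2 without knockout library 1 (0.0741) or wild-type library 1 (0.199) or 2 (0.166).

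Of 28 cytokine receptor genes on a list, Flt3 and Csf2ra rose (7.14%, against 0.599% of all genes), none fell, and the median was 0.04. Since the list was chosen with earlier results of these data known, this share is a description only. Flt3, the receptor of progenitors and dendritic cells, held 0.381, 0.512 and 0.376 mRNA per cell in knockout and 0.0946 and 0.0892 in wild-type libraries. The knockout mean was 4.6 times the wild-type mean, on 53 and 12 reads, and the call was kept whichever FoB library was left out (rescaled log2 1.08 ± 0.12, SE; limma, Benjamini-Hochberg adjusted p = 0.002). Csf2ra, the α chain of the receptor for GM-CSF, rose from 2.40 and 2.15 to 4.42, 4.29 and 3.07 (0.77, adjusted p = 0.00671). Il3ra, the α chain of the interleukin 3 receptor and not on that list, went from 0.868 and 0.877 to 1.46, 1.99 and 1.16 (0.70, adjusted p = 0.0484). Csf2ra lost its call without wild-type library 1 (0.116), and Il3ra in each such fit other than that without knockout library 3 (up to 0.322).

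Several of these genes are markers of other cell types, so marker lists stand beside them. Of 17 macrophage and monocyte markers, 5 were measured, and Ly6c2 and Itgam rose, where 0.464% of all genes rose. Cd68, Hmox1 and Spic had changes from −0.18 to 0.23 with none passing. The summed level of all 5 was 4.91, 4.52 and 4.77 mRNA per cell in knockout and 2.73 and 1.94 in wild-type libraries. Without Ly6c2 and Itgam the sum was 1.97, 2.07 and 1.54 against 1.85 and 1.6, and the groups overlapped. Ly6c2 and Itgam were left out because they rose, so the overlap of the remaining sum is a description only. Cd68 stood at 1.17, 1.09 and 0.816 against 1.04 and 0.784, which overlap. Dendritic markers gave 3 of 11 measured, of which Flt3 rose, while Cst3 (12.79, 14.97 and 9.922 against 12.5 and 9.96) and Bst2 did not pass. Lck was the 1 T cell marker measured of 15, and of 9 NK markers 3 were measured, with no call in either list. The NK markers summed to 0.692, 0.619 and 0.658 in knockout and 0.416 and 0.374 in wild-type libraries. The neutrophil list had 0 of 10 members in the table, and the erythroid, platelet and endothelial lists 1 each, none called. All 4 plasma cell markers measured, Slamf7, Derl3, Xbp1 and Irf4, did not pass. The part of other cell types in the rises was not tested.

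Interferon-stimulated genes lay above 0 almost throughout, though few passed singly. Of 50 measured, on a list chosen with earlier results of these data known, 4 rose after rescaling and 0 fell, against 0.464% and 0.134% of all genes. Changes above 0 were seen for 48 of 50, against 48.6% of all genes, and 36 had every knockout library above every wild-type library, against 15.2% of all genes. Their median change was 0.32. An unadjusted p under 0.05 with a rise was reached by 33, against 7.65% of all genes. Isg15 (chromosome 4, 156199424 to 156200818), a ubiquitin-like antiviral protein, held 0.944, 0.878 and 0.658 mRNA per cell in knockout and 0.229 and 0.216 in wild-type libraries, on means of 21 and 6 reads (rescaled log2 1.29 ± 0.16, SE; limma, Benjamini-Hochberg adjusted p = 0.00325). Ifit1bl1 (chromosome 19, 34592888 to 34662981), of the RNA-binding Ifit family, went from 1.36 and 1.31 to 2.67, 3.18 and 3.21 (1.11 ± 0.17, adjusted p = 0.0112), but its gene model overlaps other Ifit genes, so its reads are uncertain. Oasl2, of the oligoadenylate synthetase family, rose from 1.08 and 1.14 to 1.84, 2.14 and 1.87 (0.76, adjusted p = 0.035). Usp18, which removes Isg15 and dampens the interferon receptor, rose from 1.68 and 1.55 to 2.38, 2.47 and 2.34 (0.56, adjusted p = 0.0359). The antiviral GTPase gene Tgtp2 (chromosome 11, 49057196 to 49064212), which was not on the list, went from 1.32 and 1.18 to 2.62, 2.85 and 2.93 (1.09 ± 0.12, adjusted p = 0.0022). Its near copy Tgtp1 shares sequence with it and had a rescaled change of 0.84 that did not pass (adjusted p = 0.0647). Per cell Tgtp1 rose by 0.76 and passed (adjusted p = 0.0294), but not without knockout library 2 (0.181) or 3 (0.079). Among members that did not pass, Ifit2 had 1.48, 1.74 and 1.69 against 1.12 and 1.03 (0.57, adjusted p = 0.0545). Mx1 had 1.36, 1.38 and 1.17 against 0.954 and 0.950 (0.42, adjusted p = 0.179), and all 46 that did not pass ranged from −0.02 to 0.60. Oasl2 lost its call with any 1 FoB library left out (adjusted p 0.0552 to 0.28), Usp18 with any but knockout library 2 (up to 0.28), and Ifit1bl1 without wild-type library 1 (0.155) or 2 (0.0582).

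The promoters of the risen interferon genes that hold an interferon response element are shown, because a fixed motif search found that element in them. The element was searched as a pair of GAAA with 2 bases between them, on both strands, from 250 bases before to 50 after the start in the RefSeq promoter table (GRCm38.p6), taking the first start listed for each gene. Capitals mark the element. They are read 5′ to 3′ along the gene and were chosen for display after values were seen.
Isg15, minus strand, chr4:156200769-156201068: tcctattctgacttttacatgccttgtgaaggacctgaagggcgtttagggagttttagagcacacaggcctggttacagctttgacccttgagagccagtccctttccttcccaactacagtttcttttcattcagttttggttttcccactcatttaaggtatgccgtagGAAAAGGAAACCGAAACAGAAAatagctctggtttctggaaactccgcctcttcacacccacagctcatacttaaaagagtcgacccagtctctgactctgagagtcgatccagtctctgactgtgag
Ifit1bl1, minus strand, chr19:34601919-34602218: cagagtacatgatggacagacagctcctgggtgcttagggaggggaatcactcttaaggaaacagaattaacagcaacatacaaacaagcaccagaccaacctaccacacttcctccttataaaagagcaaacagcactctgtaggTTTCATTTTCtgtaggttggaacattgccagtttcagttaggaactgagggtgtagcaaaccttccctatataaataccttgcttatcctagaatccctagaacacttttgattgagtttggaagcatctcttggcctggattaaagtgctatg
Tgtp2, minus strand, chr11:49064163-49064462: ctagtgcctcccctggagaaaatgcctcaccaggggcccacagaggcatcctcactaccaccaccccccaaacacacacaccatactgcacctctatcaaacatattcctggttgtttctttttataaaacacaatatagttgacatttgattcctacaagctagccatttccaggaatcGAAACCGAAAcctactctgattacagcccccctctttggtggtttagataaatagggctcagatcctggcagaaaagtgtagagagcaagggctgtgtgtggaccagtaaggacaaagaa
Isg15 holds 3 overlapping copies and the other two genes 1 each. A promoter was listed for 7753 genes of the table, and 3.22% of these held the element. It was found in 22 of 38 interferon-stimulated genes with a promoter (57.9%), and in 3 of 31 risen genes with a promoter (9.68%), the 3 shown. It was found in 0 of 12 genes that fell.

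A shorter motif, AATC, is the core that Gfi1 and Gfi1b bind, and the promoters of the genes with the largest rise and the largest fall are shown for it, with AATC or its complement in capitals.
Ly6c2, minus strand, chr15:75111922-75112221: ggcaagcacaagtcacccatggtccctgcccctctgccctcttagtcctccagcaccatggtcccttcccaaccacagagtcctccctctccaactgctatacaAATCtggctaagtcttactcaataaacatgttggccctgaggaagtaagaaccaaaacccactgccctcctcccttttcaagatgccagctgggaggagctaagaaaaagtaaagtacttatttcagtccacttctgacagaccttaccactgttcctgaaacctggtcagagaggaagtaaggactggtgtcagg
Fcamr, plus strand, chr1:130800652-130800951: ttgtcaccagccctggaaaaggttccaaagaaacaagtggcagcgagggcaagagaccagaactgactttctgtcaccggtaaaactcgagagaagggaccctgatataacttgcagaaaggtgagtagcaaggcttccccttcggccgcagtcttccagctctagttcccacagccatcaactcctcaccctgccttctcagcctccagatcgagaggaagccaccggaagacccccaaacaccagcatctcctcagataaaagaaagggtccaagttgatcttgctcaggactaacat
Ly6c2 has 1 match and Fcamr 0. So short a motif is common: 67.0% of all promoters held it, with 23 of 31 risen genes (74.2%) and 6 of 12 fallen ones. The Ets core GGAA was in 96.0% of all promoters, and the AP-1 motif TGANTCA in 4.33% of all and in 1 of 31 risen genes, Clec12a. A match is a description of these letters and shows no binding.

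Among the genes that fell, Fcamr (chromosome 1, 130784706 to 130825903), an Fc receptor for IgM and IgA, had the largest change. It held 1.14, 0.853 and 0.892 mRNA per cell in knockout and 3.678 and 5.004 in wild-type libraries, so every knockout library lay far below both wild-type ones (rescaled log2 −1.90 ± 0.24, SE; limma, Benjamini-Hochberg adjusted p = 0.00399). Rnpep (chromosome 1, 135262699 to 135284423), the aminopeptidase B gene, held 0.558, 0.380 and 0.381 against 1.87 and 2.27 (−1.77 ± 0.23, adjusted p = 0.00509, and 0.0752 without wild-type library 2). Rgs18 (chromosome 1, 144752683 to 144775427) encodes a brake on G-protein signalling from chemokine receptors. It held 0.0768, 0.130 and 0.127 against 0.635 and 0.482, on means of 7.3 and 37 reads (−1.23 ± 0.11, adjusted p = 0.000788). Ahnak, a very large scaffold protein gene, went from 4.34 and 5.59 to 2.65, 2.82 and 2.46 (−0.80 ± 0.15, adjusted p = 0.0469). Fuca1, which encodes the lysosomal enzyme that removes fucose, went from 10.8 and 8.37 to 5.84, 6.68 and 5.14 (−0.63 ± 0.06, adjusted p = 0.00158).

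The other falls were smaller or in non-coding genes. Mapk11, the p38β kinase gene, held 7.91, 8.86 and 6.61 mRNA per cell in knockout and 12.8 and 10.2 in wild-type libraries, a rescaled change of −0.50 (limma, Benjamini-Hochberg adjusted p = 0.0277). Ptpn22, the gene of a phosphatase that restrains antigen receptor signalling, changed by −0.43 (adjusted p = 0.0103), Habp4, an RNA-binding protein gene, by −0.52 (0.0393), and Pold1, the catalytic subunit of DNA polymerase δ, by −0.36 (0.0474). The other 3 were the non-coding genes 4930481A15Rik (−1.19), 2610035D17Rik (−0.83) and I730030J21Rik (−0.59). Pold1 and Habp4 lost their call with any 1 FoB library left out (up to 0.36 and 0.332), Mapk11 and Ahnak in 4 of 5 such fits (up to 0.228 and 0.207), and Ptpn22, 4930481A15Rik and 2610035D17Rik without wild-type library 1 or 2 (up to 0.155, 0.138 and 0.161). I730030J21Rik lost its call without wild-type library 1 (0.0851).

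Lists of genes that set B cell subsets apart were compared next. None of 18 follicular B cell genes passed, 9 lay above and 9 below 0, and their median was −0.00. Cxcr4, the receptor that holds cells near CXCL12, had the largest value among them, at 12.5, 20.7 and 16.8 mRNA per cell in knockout and 11.7 and 9.09 in wild-type libraries (rescaled log2 0.70, limma, Benjamini-Hochberg adjusted p = 0.0891). The groups of Cxcr4 did not overlap, but knockout library 1 lay close to wild-type library 1. Of 29 marginal zone B cell genes, Cd300lf rose and Fcamr and Rgs18 fell (10.3%, against 0.599% of all genes), 19 lay below 0, and the median was −0.10. That share is a description only, since members were chosen with earlier results of these data known. The Notch targets Dtx1 (5.15, 6.27 and 4.49 against 8.55 and 5.41) and Hes1 (1.451, 1.997 and 1.354 against 2.28 and 1.95) did not pass (adjusted p = 0.203 and 0.195), nor did any other of 24 Notch pathway genes (median −0.07). Spn was the 1 gene of 11 B-1 cell genes that passed, against 0.599% of all genes. None of 12 immature and transitional genes passed (median 0.13), nor of 38 B cell transcription factors (−0.01), 35 antigen receptor signalling genes (−0.05) or 4 germinal centre genes, where Bcl6 had a value of −0.20 in FoB and 0.59 in MZB, a difference of −0.78 that passed (limma, Benjamini-Hochberg adjusted p = 0.0454) but was called in 8 of 19 alternatives.

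**Figure D3:**
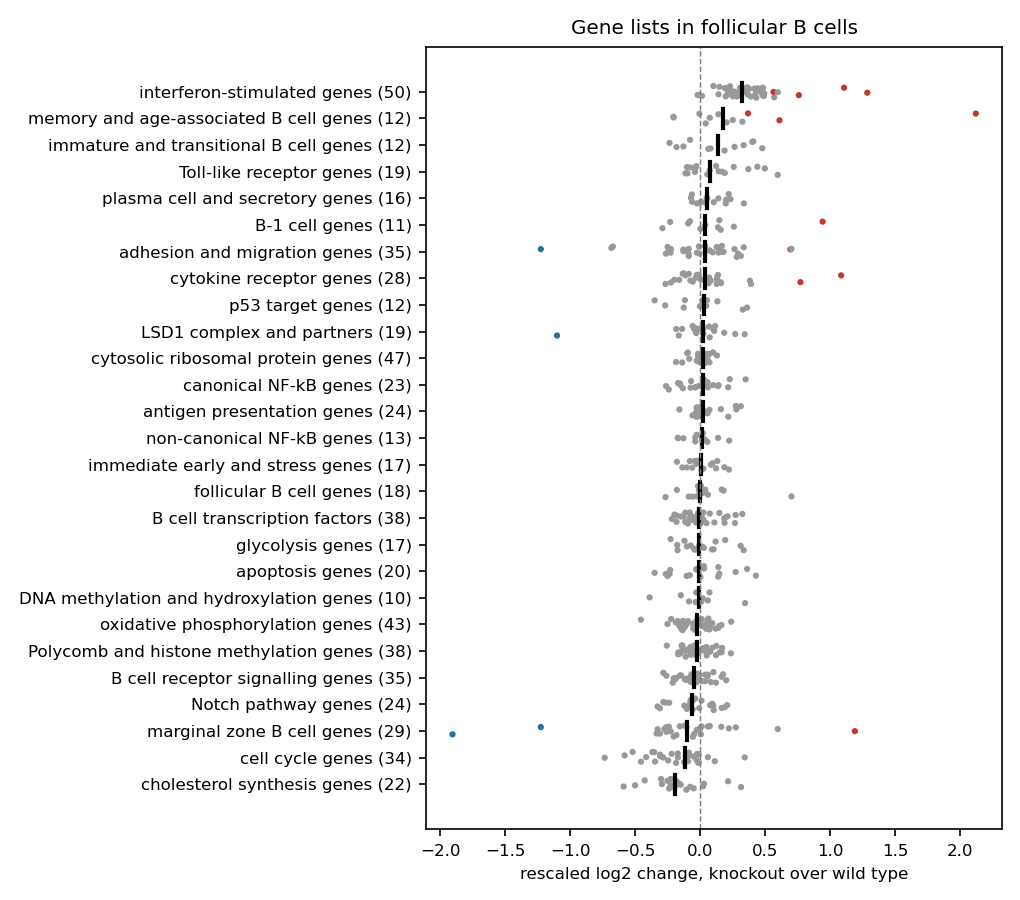
Rescaled log2 changes of the members of the gene lists, 1 dot per gene, with the number measured in parentheses and the median as a black bar. Red dots rose, blue dots fell and grey dots did not pass. The interferon-stimulated genes have a median of 0.32, and the cholesterol synthesis genes a median of −0.19.

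Cell cycle genes were low in these resting cells and mostly lay below 0, although none of 34 passed. Changes below 0 were seen for 31 of 34, against 51.4% of all genes, with a median of −0.12 and with 13 for which every knockout library lay below every wild-type library, against 16.1% of all genes. An unadjusted p under 0.05 with a fall was reached by 10 of 34, against 6.93% of all genes. Mki67, the proliferation antigen Ki-67, held 0.191, 0.144 and 0.162 mRNA per cell in knockout and 0.403 and 0.450 in wild-type libraries, on means of 57 and 154 reads. All knockout libraries lay below both wild-type ones, and the rescaled change of −0.73 had a limma Benjamini-Hochberg adjusted p of 0.0695. Top2a, the topoisomerase of dividing cells, held 0.314, 0.342 and 0.344 against 0.595 and 0.581 (−0.52, adjusted p = 0.166). The replication helicase gene Mcm5 held 2.30, 2.36 and 2.11 against 3.42 and 2.53 (−0.31, adjusted p = 0.195). Whether fewer cycling cells or less RNA in each lies behind these values cannot be told apart.

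Cholesterol synthesis genes had the lowest median of the lists with at least 4 genes measured, at −0.19, with 18 of 22 below 0 and none called. Insig1, which retains the sterol sensor in the endoplasmic reticulum, held 1.43, 2.18 and 1.27 mRNA per cell in knockout and 2.70 and 2.15 in wild-type libraries (rescaled log2 −0.50, limma, Benjamini-Hochberg adjusted p = 0.172). In Insig1 knockout library 2 lay just above wild-type library 2 per cell. Other metabolic lists had no member that passed: 43 oxidative phosphorylation genes (median −0.03), 17 glycolysis genes (−0.01) and 47 ribosomal protein genes (0.02).

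Partners and related enzymes of LSD1 were measured too. Kdm1a was the 1 gene that passed of 19 for the LSD1 complex and its partners, and the others ranged from −0.18 to 0.34. Zfp217, a zinc finger partner, stood at 5.96, 6.09 and 5.12 mRNA per cell against 5.27 and 4.05 (rescaled log2 0.34, limma, Benjamini-Hochberg adjusted p = 0.0708). None of 38 Polycomb and histone methylation genes or 10 DNA methylation genes passed, with medians of −0.03 and −0.01. Canonical NF-κB genes (23, median 0.02), non-canonical ones (13, 0.01), Toll-like receptor pathway genes (19, 0.07), antigen presentation genes (24, 0.02), immediate early genes (17, 0.01), apoptosis genes (20, −0.01), p53 targets (12, 0.03) and secretory genes of plasma cells (16, 0.05) had no member that passed. Of 35 adhesion and migration genes Itgam rose and Rgs18 fell, and of 8 Fc receptor genes Fcamr fell. Over all genes, 0.464% rose and 0.134% fell.

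The other risen genes have varied roles. Srp54a and Srp54b, near-identical copies of a signal recognition particle subunit, rose by 0.92 and 0.73, and their reads cannot be split with certainty. Srp54a held 4.65, 5.58 and 3.89 mRNA per cell in knockout and 2.54 and 2.37 in wild-type libraries. Endou, an endoribonuclease gene, held 1.157, 1.301 and 1.004 against 0.595 and 0.474 (rescaled log2 0.91; limma, Benjamini-Hochberg adjusted p = 0.00893). Syt11, a vesicle protein gene, rose by 0.83, the embigin gene Emb by 0.88, the adaptor gene Scimp by 0.63, the endocytosis gene Hip1 by 0.60, the sialyltransferase gene St8sia6 by 0.54 and the cytidine deaminase gene Apobec1 by 0.38. Rnase4, Bspry, Tm7sf3, AW112010 and the predicted genes Gm2848, Gm4759, 5930430L01Rik and 5830417I10Rik make up the rest, with changes from 0.48 to 0.97. Scimp, St8sia6 and Bspry lost their call with any 1 FoB library left out. Srp54a, Endou, Syt11, Emb, Hip1, Apobec1, Srp54b, Rnase4, Tm7sf3, AW112010 and the 4 predicted genes lost theirs in at least 1 such fit, with limma adjusted p, by Benjamini-Hochberg, up to 0.051 for Srp54a, 0.0994 for Endou, 0.199 for Syt11, 0.155 for Emb and 0.319 for Tm7sf3.

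Some called genes lie next to each other. Within 500 kb there were 6 pairs of called genes, all changed in the same direction, and 11 of 58 called genes (19.0%) had a called neighbour, against 6.1% of the genes that were not called. Alox5ap, 5930430L01Rik and B3glct lie together on chromosome 5, where Flt3 falls in the same window of 10 Mb. That window, from 140 to 150 Mb, had 4 of 74 genes called (5.41%, against 0.599% of all genes). The window from 120 to 130 Mb of chromosome 6 had 3 of 71 (4.23%), Apobec1, Clec12a and Usp18. Endou and Rapgef3 lie 13365 bases apart on chromosome 15. The remaining pairs were Ly6a with Ly6c2 and Srp54a with Srp54b, which are paralogs, and Syt11 with 5830417I10Rik, 1898 bases apart. Per cell, the window from 130 to 140 Mb of chromosome 1 also held 4 called genes of 53 (7.55%, against 0.712% of all genes). Fcamr and Rnpep were lower there, and Ctse and Ptprv higher. All these windows were picked for their number of called genes, so their high shares are a description only. Within 15 Mb of Kdm1a 1 of 228 other genes was called after rescaling (0.439%, against 0.592% elsewhere), and that gene, Fuca1, lies 0.61 Mb from Kdm1a. Whether position bears on these changes was not tested.

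Of the genes called per cell, 38 did not pass after rescaling, and in several of these the libraries of 1 group differed. Cort, a neuropeptide gene 12.5 Mb from Kdm1a, held 1.79, 0.121 and 0.856 mRNA per cell in knockout and 0.116 and 0.218 in wild-type libraries. Dhrs3, a retinal reductase gene 8.29 Mb from Kdm1a, held 0.768, 0.0928 and 0.740 against 0.0590 and 0.0696. In both, knockout library 2 lay at the wild-type level while the other two stood higher, and Xlr3b, an X-linked gene family member, had the same order (1.28, 0.243 and 0.747 against 0.0891 and 0.0504). Mid1, Erdr1 and G530011O06Rik, which lie together at the far end of the X chromosome, had another order: Mid1 held 4.31, 8.90 and 0.767 against 1.13 and 1.02, with library 3 at or below the wild-type level. Erdr1 held 33.8, 79.7 and 18.3 against 13.4 and 12.6, and G530011O06Rik 1.81, 3.87 and 0.388 against 0.375 and 0.445. Their per-cell log2 changes were 1.12 for Cort, 1.06 for Dhrs3, 1.39 for Xlr3b, 1.38 for Mid1, 1.48 for Erdr1 and 1.36 for G530011O06Rik. Rescaled, their limma adjusted p, with Benjamini-Hochberg adjustment, ran from 0.158 to 0.37. Left-out libraries moved these values: without knockout library 1 the per-cell change of Cort was 0.59 (limma adjusted p = 0.391), and without knockout library 2 that of Mid1 was 0.69 (0.0835), while the calls of Cort, Dhrs3, Xlr3b, Mid1 and G530011O06Rik were lost without wild-type library 1 or 2.

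**Figure D4:**
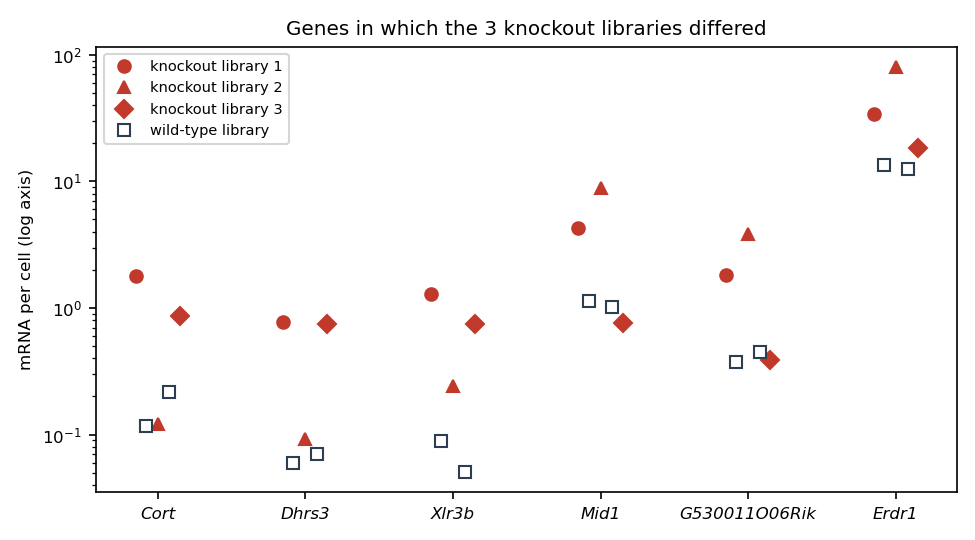
mRNA per cell (log axis) of 6 genes in each FoB library, red symbols for the 3 knockout libraries and open squares for the 2 wild-type ones. Cort, Dhrs3 and Xlr3b are lowest among knockout libraries in library 2, and Mid1, G530011O06Rik and Erdr1 are lowest in library 3.

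In 2 further genes the wild-type libraries differed. Ctse, which encodes the aspartic protease cathepsin E, held 12.7, 14.6 and 10.8 mRNA per cell in knockout and 8.84 and 2.69 in wild-type libraries. Ptprv, a receptor phosphatase gene, held 2.53, 2.35 and 1.98 against 1.12 and 0.165. All knockout libraries lay above both wild-type ones, and per cell both genes rose (log2 1.31 and 1.66; limma, Benjamini-Hochberg adjusted p = 4.66e-05 and 5.44e-07). Their per-cell standard errors were 0.22 and 0.24, against 0.19 for Kdm1a, although their wild-type libraries lay further apart. These p-values thus reflect a spread shared across genes more than the spread of each gene itself. Without wild-type library 2 the changes were 0.50 and 0.86 (adjusted p = 0.754 and 0.333), and rescaled neither passed (0.0804 and 0.146).

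The effects in FoB were set beside those in MZB, whose libraries are separate but were fitted together with the FoB libraries. Each gene therefore has the same standard error in both cell types (0.06 for Kdm1a, 0.23 for Alox5ap), and calls in both are not independent. Of the 45 genes that rose in FoB, 34 also rose in MZB (75.6% of the FoB list, 10.4% of the 328 of MZB), where 3.38% of all genes rose. Of the 13 that fell, 9 also fell in MZB (69.2% of the FoB list, 4.97% of the 181 of MZB), where 1.87% of all genes fell, so that 5.25% were called in MZB. The sign was shared by 44 of the 45 risen genes and by 10 of the 13 that fell, while the share over all genes is not given here. Alox5ap changed by 2.06 in FoB and 1.63 in MZB, Ly6c2 by 2.12 and 2.52, Flt3 by 1.08 and 1.495, and Rgs18 by −1.23 and −1.66, and the difference passed for none of these (limma, Benjamini-Hochberg adjusted p from 0.145 to 0.588). Genes that rose in FoB with values near 0 in MZB included Cd300lf (1.19 against 0.02) and Isg15 (1.29 against 0.14). Their differences did not pass either (adjusted p = 0.0805 and 0.0623). Others were Pde8a (0.73 against 0.06), Pdcd1lg2 (0.61 against 0.14) and Hip1 (0.60 against 0.02). Gm4759 (0.56 against 0.01) and Cd86 (0.37 against −0.08) were further ones, and none of these differences passed.

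**Figure D5:**
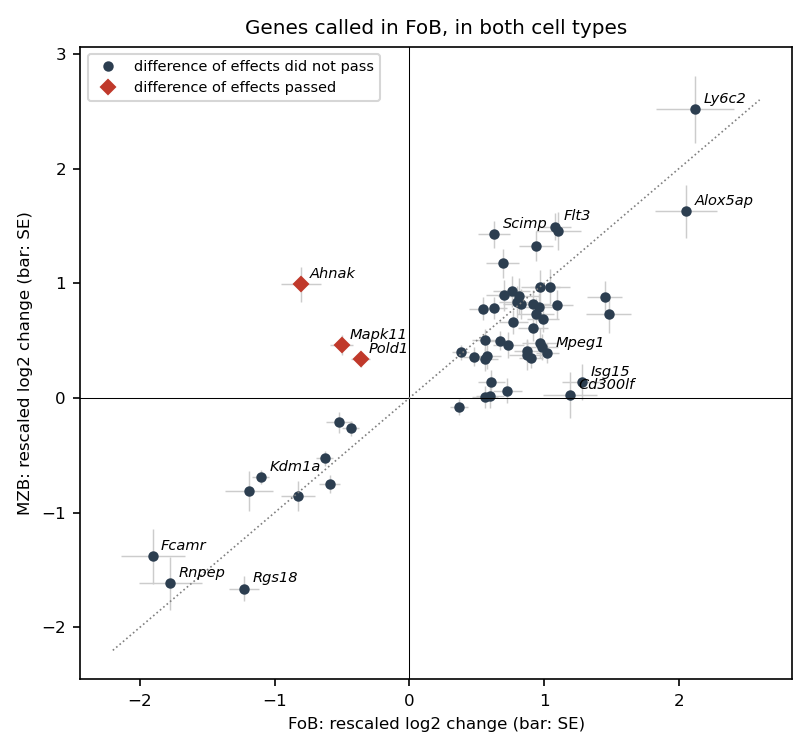
Rescaled log2 change in FoB (x axis) and MZB (y axis) of the 58 genes called in FoB, with bars of 1 standard error and a dotted line of equal change. Red diamonds are Ahnak, Mapk11 and Pold1, for which the difference between cell types passed, at −1.79, −0.96 and −0.70.

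The difference of knockout effects passed for 14 genes with a higher and 16 with a lower value in FoB (0.144% and 0.165% of those tested, 0.31% together). Ahnak, Mapk11 and Pold1 were the 3 FoB genes among them, and all fell in FoB and rose in MZB. For Ahnak the mean rescaled level in FoB was 3.85 (SD 0.1235, n = 3) with knockout and 7.135 (SD 2.39, n = 2) without, and in MZB 1.63 (SD 0.0861, n = 2) and 0.671 (SD 0.0386, n = 3). The difference was −1.79 ± 0.21 (SE; limma, Benjamini-Hochberg adjusted p = 0.0217). It was −0.96 for Mapk11 and −0.70 for Pold1 (adjusted p = 0.0222 for both). Itgb7, the β7 integrin of homing receptors, had a value of 0.18 in FoB that did not pass and 1.48 in MZB, a difference of −1.30 (adjusted p = 0.00572), and was called under each of 19 alternatives (adjusted p up to 0.0428). The 3 genes called in FoB were less stable: Ahnak passed in 15 of 19 alternatives, Mapk11 in 14 and Pold1 in 13, with adjusted p up to 0.0902, 0.151 and 0.159, and all 3 were lost without knockout MZB library 2 or wild-type MZB library 1. The medians of lists differed in sign between cell types for cell cycle genes, at −0.12 in FoB and 0.28 in MZB, and were 0.32 and 0.27 for interferon-stimulated genes, with no test of either difference.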

How the data were processed

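Poly(A)-selected RNA from 50000 sorted cells per sample was made into stranded libraries, per the labels' protocols. The deposited table gives 1 signal value per gene and library, named mRNA per cell by the authors. Per the submitters' processing notes, STAR and mm10 were used, version not stated. The sources used here do not say how reads were counted, how genes were filtered or how molecules per cell were derived. Of 9690 Entrez identifiers 9681 were matched to symbols and positions on GRCm38.p6 (RefSeq). The values of a gene are whole multiples of what 1 read is worth, and whole reads were recovered for 100% of genes within 0.02 reads. Because that unit depends on the gene, no count model was run, and limma voom on the recovered reads was an alternative.

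Groups came from the labels, and 0 columns stayed without a sample. Two-sided tests used limma 3.58.1 (R 4.3.3), fitted to log2(value + 0.3) with 1 coefficient per group over all 10 libraries, with an intensity trend and no covariate. Benjamini-Hochberg adjustment ran over the whole table, with a threshold of 0.05. A floor of 0.3 in 2 libraries removed 0 genes. For rescaling, log-ratios to the average of all libraries were trimmed (0.3 by ratio, 0.05 by level) and averaged, and the library was divided by the result. The total was tested by exact permutation. Standard errors in FoB had a median of 0.19 per cell and 0.104 rescaled. Per cell they varied little between genes, for example 0.186 for Grip2 and 0.189 for Kdm1a, since limma drew them toward the trend. Python 3.11.15 with pandas 2.3.3, numpy 2.4.6 and matplotlib 3.10.9 made the tables and plots, and the scripts were tested on simulated data.

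Named genes are Kdm1a, the sort marker genes, in each direction up to 15 genes by rescaled change and 10 more per cell (passed, no overlap, at least 1 molecule per cell in the higher group, small RNA and predicted genes left out), up to 4 genes with the smallest p from each list, and genes called in both cell types or for their difference. The remaining called genes are named as well, apart from an item that is not reported here. The genes, lists and tests were chosen with earlier results of these data known. Lists are described by counts and medians, with no set test. Alternatives changed the pseudocount (0.1 or 1), the floor, the trend, library weights, a replicate block, the libraries fitted, the scaling and the model, and left out each library in turn.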

Additional observations from a re-analysis of the deposited data

Results flagged for a closer look

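For 15 of the named genes the knockout effects in FoB and MZB differed by the test of the difference itself (limma on rescaled log2 values, Benjamini-Hochberg adjusted p under 0.05), with FoB minus MZB given here. The values were 1.29 for Tlr3, 1.25 for Marcks, 1.21 for Grip2, 2.23 for Gm13212, 1.502 for Zfp982 and 1.36 for Zfp984. They were −1.79 for Ahnak, −0.96 for Mapk11, −0.70 for Pold1, −0.83 for Klf2, −0.90 for Itgb3, −1.30 for Itgb7, −0.85 for Jund, −0.78 for Bcl6 and −0.53 for Il27ra. Without knockout MZB library 2, or without wild-type MZB library 1, Itgb7 alone among these 15 passed, and without wild-type FoB library 1 or 2 only Itgb7 and Ahnak did. Of these, Ahnak, Mapk11 and Pold1 also passed in FoB itself. The other 12 did not pass in FoB. The sign of the effect was opposite in FoB and MZB for 13 of 15, the exceptions being Grip2 and Itgb7. Choosing genes by the difference itself favours opposite signs, so this count is a description only. For the 12 that did not pass in FoB, the sign in FoB is not settled. Tlr3, for example, had 0.60 in FoB and −0.70 in MZB, Marcks 0.48 and −0.77, and Klf2 −0.18 and 0.65. Gm13212, Zfp982 and Zfp984 lie 8.98, 10.8 and 11.2 Mb from Kdm1a on chromosome 4. Grip2 was near 0 in all FoB libraries (at most 0.00694 mRNA per cell), so its difference rests on MZB.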

How the results depend on the processing

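Per cell, 69 genes were called in the reported fit, 128 with the 5 FoB libraries fitted alone and 39 to 106 with 1 FoB library left out. After rescaling, 58 genes were called in the reported fit, against 26 with FoB alone, 105 with limma voom and 25 to 71 with 1 library left out. The difference between cell types passed for 30 genes, against 285 with library weights, 614 with limma voom and 1 to 336 with 1 library left out (336 without FoB knockout library 2, 1 without MZB wild-type library 1). The total ratio ran from 0.871 to 1.09 with 1 library left out, and passed 1 without knockout library 3 (1.02) and without wild-type library 1 (1.09). Pseudocount 1 raised the genes with a higher difference in FoB from 14 to 24. The other pseudocount, the floor and the other scalings moved no count of calls, in all or by direction, by over 1.5 times. The cause of these shifts was not tested.

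The replicate numbers did not pair the libraries: deviations of equal-numbered libraries correlated at 0.0608 and 0.00616. A fit with the replicate number as a block called 35 genes after rescaling and 4 for the difference.

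Some values near 0 changed sign, none of them called in FoB after rescaling. With 1 FoB library left out, the rescaled change ran from −0.0333 to 0.0610 for Fcer2a (−0.0216 without wild-type library 2), from −0.00882 to 0.128 for Cr2, from −0.242 to 0.0267 for Prf1, from −0.0292 to 0.420 for Bst2, from −0.00799 to 0.199 for Pecam1, from −0.139 to 0.0133 for Irf4 and from −0.0173 to 0.0161 for Grip2. Grip2 was also at 0.00245 with library weights and at 0.00925 under the replicate block. The per-cell change of Mir7052, a small RNA gene, ran from −0.173 to 2.27. Genes under about 10 reads, among them small RNA genes and wild-type Alox5ap and Isg15, are limited by depth.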
